A study of Mus musculus with 2 samples.

Results

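Cells with the mRNA of *Lgr5*, a receptor that marks stem cells of the intestinal crypt, were described among the tumor epithelial cells of colitis-associated colon cancers (CACs) in mice. Cells were chosen by their own readout. Among cells annotated as epithelial, those with at least 2 unique molecular identifiers (UMIs, each counting 1 captured mRNA molecule) of *Lgr5*, no UMI of the mitotic gene *Top2a* and under 25% of UMIs from mitochondrially encoded (mt-) genes were called Lgr5-positive. This gave 1081 cells, 660 in the Mir34a_F/F and 421 in the Mir34a_Mye_KO library, of 21479 epithelial cells and of 38883 cells in all. They were set beside the Lgr5-0 cells of the same library, which are epithelial cells with 0 UMIs of *Lgr5* and the same conditions on *Top2a* and mt- genes. There were 5191 Lgr5-0 cells in the Mir34a_F/F and 3467 in the Mir34a_Mye_KO library, 8658 together.

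The study asked what loss of *Mir34a* in myeloid cells does to CACs and the cells around them, and profiled dissociated tumors by single-cell RNA sequencing. Both groups carried the floxed *Mir34a* allele, and in Mir34a_Mye_KO mice it was combined with LysM-Cre, which acts in myeloid cells, so the epithelial cells described here are not the targeted cells. Mice aged 6 to 10 weeks received azoxymethane (AOM, 10 mg/kg) and 3 cycles of dextran sodium sulfate (DSS, 2.5% in the first cycles and 2% in cycle 3), and were killed on day 110. Each library pooled 6 to 8 tumors from 3 female mice of 1 genotype, and no mouse was assigned to a cell.

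LGR5 binds R-spondins and strengthens Wnt signaling, which keeps crypt base cells in an undifferentiated state through β-catenin and the TCF/LEF factors. Many genes that Wnt signaling activates encode its own inhibitors, so that cells with high signaling also produce its brakes. As cells leave the crypt base, Wnt target genes decline and genes of absorptive colonocytes or mucus-producing goblet cells come on.

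With 1 library per genotype and cells that are not replicates, no difference was tested and no p-value was computed. The 95% intervals given here reflect how many UMIs or cells were counted, and say nothing of variation between mice or tumors. A level is the average, over the cells of a set, of a gene's UMIs per 10000, and differences are log2 ratios of these means, Lgr5-positive over Lgr5-0 cells within a library unless stated. A gene was counted as higher or lower where the ratio passed 2-fold in both libraries and the mean was at least 0.5 in 1 of the sets of each library.

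The Mir34a_F/F library held 20312 cells with a median of 4787 UMIs, and the Mir34a_Mye_KO library held 18571 cells with a median of 7716. The row for the primary *Mir34a* transcript (*mir34apri*) was used as a check of the labels. In macrophages, the library labelled Mir34a_F/F held 133 of its UMIs (111 to 158), a level of 0.0723 per 10000, while the library labelled Mir34a_Mye_KO held 462 (421 to 506), a level of 0.111. The mature miRNA is not measured, and which part of the primary transcript the row covers is not given in the sources used here. Since this value goes against the label, every direction between the libraries rests on the labels alone. The stated filter on mitochondrial content is under 25%, yet 2328 and 3825 of the annotated epithelial cells were at or above it, which the rule for Lgr5-positive cells left out. Of all barcode sequences, 96 were found in both libraries.

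*Lgr5* lies on chromosome 10 (mm10, 115450311 to 115587780, minus strand). The genes named beside it as markers of these cells were *Axin2*, a scaffold of the complex that degrades β-catenin (chromosome 11, 108920349 to 108950783, plus strand), *Dkk2*, a secreted ligand of the Wnt co-receptors (chromosome 3, 132085292 to 132180304, plus strand), and *Kif26b*, a kinesin family member (chromosome 1, 178529125 to 178939200, plus strand). The 250 bases before their start sites are shown because the results below turn on these genes, together with those of *Tnfrsf19*, a receptor of the TNF family. They are RefSeq sequences of GRCm38.p6, read 5′ to 3′ on the strand of the gene, with capitals at ATCAAAG, the letters of a TCF/LEF core motif searched on both strands. The windows are chr11:108920099-108920348 for *Axin2*, chr3:132085042-132085291 for *Dkk2*, chr1:178528875-178529124 for *Kif26b* and chr14:61037988-61038237 for *Tnfrsf19*, whose match begins 202 bases before the start. It is 1 of 2 RefSeq starts of *Tnfrsf19* in the table, and the window of the other start holds no match.
Axin2: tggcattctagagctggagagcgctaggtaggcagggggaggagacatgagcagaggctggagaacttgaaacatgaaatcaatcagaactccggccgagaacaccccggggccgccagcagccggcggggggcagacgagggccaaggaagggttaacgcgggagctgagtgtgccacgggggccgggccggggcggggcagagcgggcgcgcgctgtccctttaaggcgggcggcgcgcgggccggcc
Dkk2: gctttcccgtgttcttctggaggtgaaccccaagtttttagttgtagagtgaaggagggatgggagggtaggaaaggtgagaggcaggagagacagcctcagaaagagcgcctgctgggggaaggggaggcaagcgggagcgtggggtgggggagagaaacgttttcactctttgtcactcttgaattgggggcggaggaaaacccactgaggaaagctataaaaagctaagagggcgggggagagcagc
Kif26b: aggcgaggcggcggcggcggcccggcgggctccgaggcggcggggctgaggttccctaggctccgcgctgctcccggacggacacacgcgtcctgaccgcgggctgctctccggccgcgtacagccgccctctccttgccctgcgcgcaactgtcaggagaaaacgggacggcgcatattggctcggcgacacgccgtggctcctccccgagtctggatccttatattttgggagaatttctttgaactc
Tnfrsf19: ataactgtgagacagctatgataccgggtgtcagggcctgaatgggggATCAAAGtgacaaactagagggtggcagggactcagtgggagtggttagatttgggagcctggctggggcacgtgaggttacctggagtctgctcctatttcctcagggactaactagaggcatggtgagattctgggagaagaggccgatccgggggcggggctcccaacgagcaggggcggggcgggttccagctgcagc

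In windows of 300 bases, from 250 before to 50 after a start, the letters occurred in 1225 of 32851 windows (3.73%) and thus for 1160 of 27025 genes (4.29%). Of 24 Wnt target and feedback genes, 16 had a window and 2 of these (12.5%) held the letters, *Tnfrsf19* and *Sp5*. No window was matched for *Lgr5* or *Notum*. Among genes that were at least 2-fold higher in Lgr5-positive cells of both libraries, 14 of 188 with a window held the letters (7.45%), against 2 of 162 genes that were lower (1.23%) and 89 of all 3004 genes above the floor on levels (2.96%). These shares are descriptions of short windows, and most regulatory sequence lies outside them.

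Selection on *Lgr5* UMIs is a cut through a range. Of the cells that met the other conditions, 714 in the Mir34a_F/F and 464 in the Mir34a_Mye_KO library had 1 UMI and stayed outside, and 257 and 138 had exactly 2. At the upper end, 69 and 62 cells had 10 or more UMIs. The median Lgr5-positive cell held 3 and 4 UMIs of *Lgr5* and the highest held 66 and 75. A further 315 and 186 cells reached 2 UMIs of *Lgr5* but held a UMI of *Top2a*, and 12 and 84 were left out for their mitochondrial content alone. Just outside the cut, cells with 1 UMI had *Axin2* at 2.35 and 2.34 per 10000, and just inside, cells with 2 UMIs had it at 2.67 and 3.60. For *Lypd8*, a protein of the colonocyte surface, the same cells had 23.5 and 20.6 outside and 8.72 and 9.71 inside.

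Lgr5-positive cells made up 5.68% (5.27 to 6.12) of epithelial cells in the Mir34a_F/F and 4.27% (3.88 to 4.69) in the Mir34a_Mye_KO library, a difference of -1.42 percentage points (-1.995 to -0.835). The share depended on the limit and the denominator for mt- genes. With the limit at 10% in place of 25%, it was 4.64% and 2.39% of all epithelial cells. Of epithelial cells under 25% mt-, the shares were 7.11% (6.59 to 7.65) and 6.97% (6.34 to 7.64), and of those that also lacked *Top2a*, they were 10.1% (9.34 to 10.8) and 9.67% (8.81 to 10.6), with intervals that overlap. Each epithelial cell was then thinned to 3000 UMIs, which left out 3168 and 2372 shallower cells. On the thinned counts, 263 of 8446 (3.11%) and 200 of 7493 (2.67%) met the rule. It was applied anew at that depth, so cells that lost their UMIs of *Top2a* by thinning could enter either set. Cells that lost those of *Lgr5* could enter the Lgr5-0 set, which then held 5336 and 2872 cells.

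Some UMIs of *Lgr5* were found in cell types that should lack it, from a source that was not tested. Among T cells, with medians of 3548 and 8043 UMIs, 0.712% (0.447 to 1.08) and 1.25% (0.859 to 1.75) had at least 2 UMIs of *Lgr5*. Among all epithelial cells, with medians of 5315.5 and 6623 UMIs, 8.55% (8.05 to 9.07) and 7.25% (6.74 to 7.78) did, without the other conditions of the rule. At 3000 UMIs, the share was 0.210% and 0.338% in T cells, 0.272% and 0.148% in macrophages, and 3.67% and 3.35% in epithelial cells. The epithelial share was thus above that of T cells and of macrophages in both libraries, with intervals that do not overlap.

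**Figure D1:**
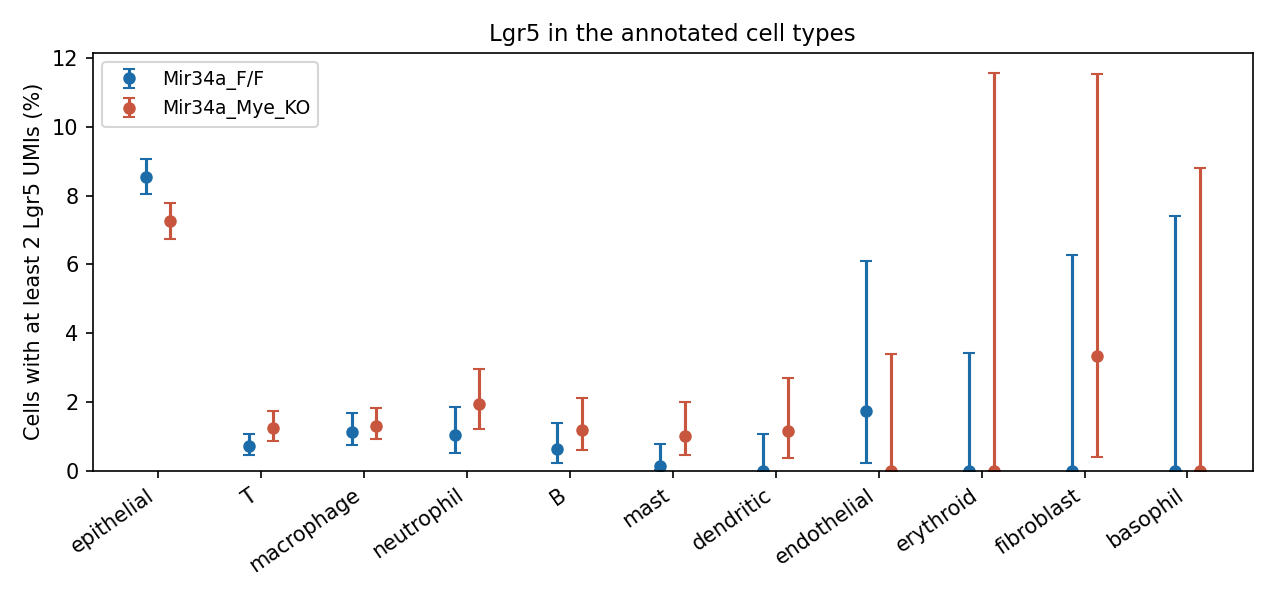
Share of cells with at least 2 UMIs of *Lgr5* in each annotated cell type (%, y axis) in the Mir34a_F/F (blue) and the Mir34a_Mye_KO library (red), with 95% binomial intervals as bars. Epithelial cells lie at 8.55% and 7.25%, and the intervals of endothelial, erythroid, fibroblast and basophil cells are wide because these cells were few.

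Lgr5-positive cells were deeper than Lgr5-0 cells, as a rule that asks for 2 UMIs of a rare mRNA implies. Their median was 13702.5 UMIs and 4259.5 genes in the Mir34a_F/F and 11175 UMIs and 3669 genes in the Mir34a_Mye_KO library. Lgr5-0 cells had 4884 UMIs and 2055 genes, and 4228 UMIs and 1801 genes. The median mt- share was 4.25% against 8.87% in the Mir34a_F/F and 8.5% against 6.39% in the Mir34a_Mye_KO library, so this measure ran in opposite directions. Results below were therefore also computed with Lgr5-0 cells weighted to the depth of the Lgr5-positive cells, by deciles of UMIs, and after thinning.

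The genes named as markers beside *Lgr5* were all higher in the Lgr5-positive cells of both libraries. The rule did not use them, but they were named with earlier results of these data known. Their direction and their presence together in cells are therefore no independent evidence. *Axin2* had a mean of 2.79 against 1.36 per 10000 in the Mir34a_F/F library (log2 1.04, 0.93 to 1.14) and 3.77 against 1.25 in the Mir34a_Mye_KO library (1.59, 1.48 to 1.71). *Dkk2* had 3.48 against 1.55 (1.17, 1.08 to 1.26) and 5.15 against 1.17 (2.13, 2.03 to 2.24). *Kif26b* had 1.99 against 0.539 (1.89, 1.75 to 2.02) and 2.36 against 0.487 (2.28, 2.10 to 2.45). Intervals of the 3 genes lie above 0 in both libraries, and the ratio was the larger one in the Mir34a_Mye_KO library each time. Depth weighting of the Lgr5-0 cells gave ratios of 1.33 and 1.63 for *Axin2*, 1.24 and 2.07 for *Dkk2* and 1.94 and 2.54 for *Kif26b*.

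The markers were seen together in single cells. At least 1 UMI of each of *Axin2*, *Dkk2* and *Kif26b* was found in 33.3% of the Lgr5-positive cells of the Mir34a_F/F and in 43.5% of those of the Mir34a_Mye_KO library, and none of them in 5.91% and 5.23%. Among Lgr5-0 cells, 6.95% and 4.93% had all of them and 50.9% and 53.7% had none. At 3000 UMIs per cell, all of them were found in 11.8% and 13.5% of Lgr5-positive cells, in 2.89% and 3.62% of Lgr5-0 cells and in 0.316% and 0.211% of T cells. *Dkk2* was the least evenly spread of the markers, with a UMI in 54.4% and 58.7% of Lgr5-positive cells against 82.1% and 87.9% for *Axin2*.

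Over all genes, 3802 were above the floor on levels. Of these, 245 (6.44%) were at least 2-fold higher and 221 (5.81%) at least 2-fold lower in the Lgr5-positive cells of both libraries, and 0 were 2-fold higher in 1 library and 2-fold lower in the other. Within a single library, 300 and 351 genes were higher and 294 and 264 lower. The ratio had the same sign in both libraries for 3077 genes, and its median over all genes above the floor was 0.22 and 0.14. Since the cells were chosen on a readout of the same cells, these counts describe the sets and test nothing. With cells of 1 UMI of *Lgr5* added to the Lgr5-positive cells, 110 of 3626 genes were higher and 43 lower. With a floor of 0.2 in place of 0.5, 425 were higher and 388 lower, out of the larger number of 7298 genes.

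**Figure D2:**
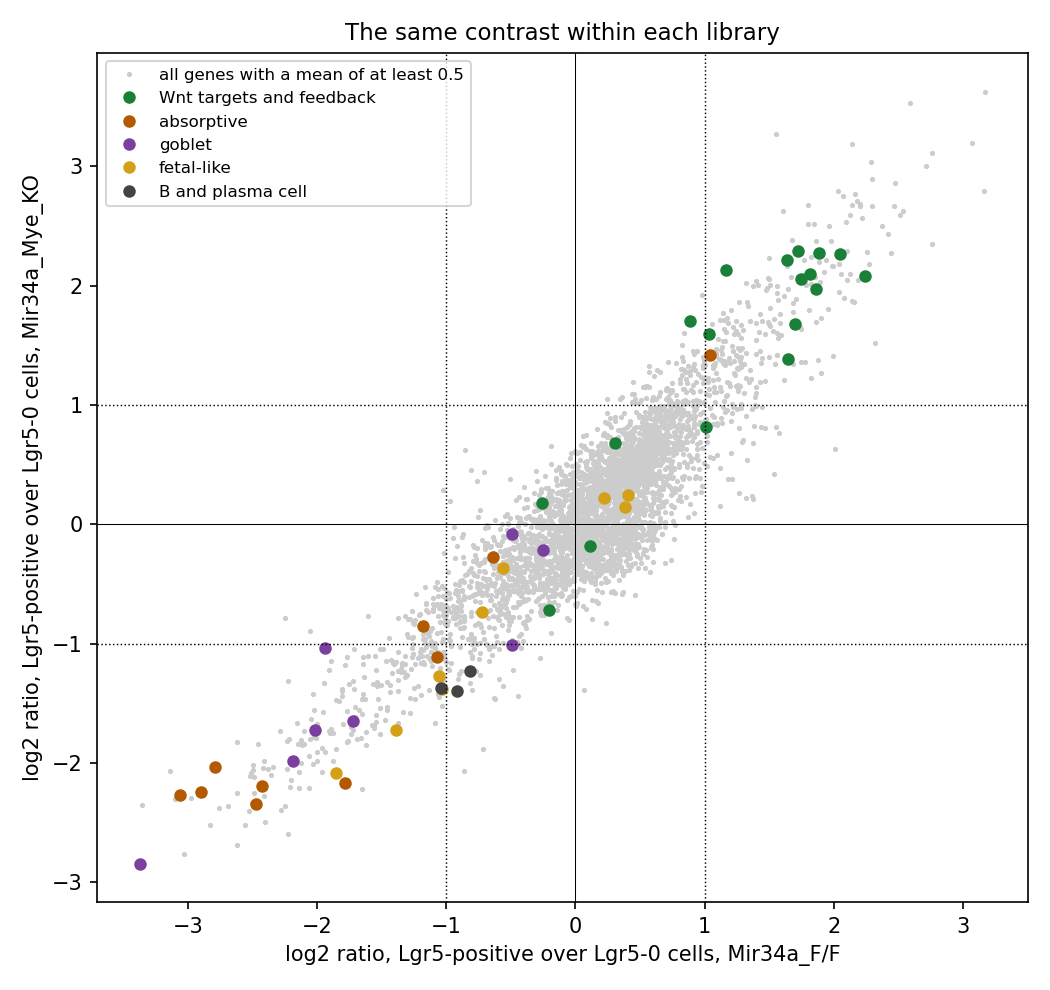
Log2 ratio of the mean level in Lgr5-positive over Lgr5-0 cells in the Mir34a_F/F library (x axis) and in the Mir34a_Mye_KO library (y axis), with 1 point per gene above the floor on levels and dotted lines at 2-fold. Wnt target and feedback genes (green) lie mainly at the upper right and absorptive (brown) and goblet genes (purple) mainly at the lower left.

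Wnt target and feedback genes were the list with the most members that were higher. Of its 24 genes, 18 were above the floor, 12 of these were higher and 0 lower, with a median log2 ratio of 1.64 in the Mir34a_F/F and 1.84 in the Mir34a_Mye_KO library, beside 0.22 and 0.14 over all genes. The summed level of the list was 52.8 against 22.8 per 10000 and 60.0 against 21.7. With depth-weighted Lgr5-0 cells, 13 were higher. The list was drawn up with results of these data known, and its count is no independent evidence.

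Several genes of the list encode inhibitors of Wnt signaling. *Nkd1*, which binds Dishevelled, had 6.01 against 1.79 per 10000 in the Mir34a_F/F library (log2 1.74, 1.67 to 1.82) and 8.33 against 2.00 in the Mir34a_Mye_KO library (2.06, 1.97 to 2.14). *Notum*, an enzyme that strips the lipid from Wnt proteins, had 3.15 against 0.970 (1.70, 1.59 to 1.81) and 2.96 against 0.924 (1.68, 1.53 to 1.83). *Znrf3*, a ligase that removes Frizzled receptors from the membrane, had 3.97 against 1.13 (1.82) and 5.09 against 1.19 (2.10). Each had a UMI in over 3 in 4 Lgr5-positive cells of both libraries. *Rnf43*, the partner of *Znrf3* with the same function, had 3.41 against 1.84 (0.89, 0.80 to 0.98) and 4.26 against 1.31 (1.70, 1.60 to 1.81), and so stayed short of 2-fold in the Mir34a_F/F library, but had 1.16 (1.07 to 1.24) and 1.55 (1.46 to 1.63) after depth weighting. The membrane inhibitor *Apcdd1* had ratios of 1.64 and 2.21. *Wif1*, a secreted protein that binds Wnts, had 1.65 and 1.38, and *Dkk3*, a secreted relative of *Dkk2*, had 2.25 and 2.08. Depth weighting moved *Notum* to 1.85 and 2.32 and *Dkk3* to 2.09 and 2.76.

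Transcription factors and receptors of the list were higher as well, with exceptions among classical targets. *Lef1*, a partner of β-catenin on DNA, had 1.54 against 0.469 per 10000 (log2 1.72, 1.56 to 1.88) and 2.22 against 0.454 (2.29, 2.12 to 2.47). *Prox1*, a homeobox factor, had 5.54 against 1.34 (2.05) and 6.33 against 1.32 (2.26), with a UMI in 88.5% and 84.8% of Lgr5-positive cells against 29.97% and 28.5%. *Tnfrsf19* had 0.606 against 0.167 (1.86) and 0.674 against 0.172 (1.97). The factor *Sox4* had ratios of 1.01 and 0.82. *Cd44*, the hyaluronan receptor, had 2.63 against 2.44 (0.11, 0.02 to 0.20) and 2.62 against 2.97 (-0.19, -0.30 to -0.07). With depth-weighted Lgr5-0 cells, the ratio of *Cd44* in the Mir34a_Mye_KO library turned to 0.18 (0.08 to 0.29), beside 0.14 (0.06 to 0.22) in the Mir34a_F/F library. *Ccnd1*, which encodes cyclin D1, had -0.21 and -0.72. The ephrin receptor genes *Ephb2* and *Ephb3*, whose proteins position cells along the crypt, had 0.31 and 0.68, and -0.26 and 0.18, where the first value of *Ephb3* turned to 0.12 (-0.07 to 0.30) after depth weighting. The other 6 genes were below the floor. Among them, *Sp5* had 0.364 against 0.135 and 0.433 against 0.155 per 10000. *Myc* differed little, with 0.433 against 0.4235 and 0.453 against 0.399, and *Bambi* had ratios of 0.24 and 0.15.

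**Figure D3:**
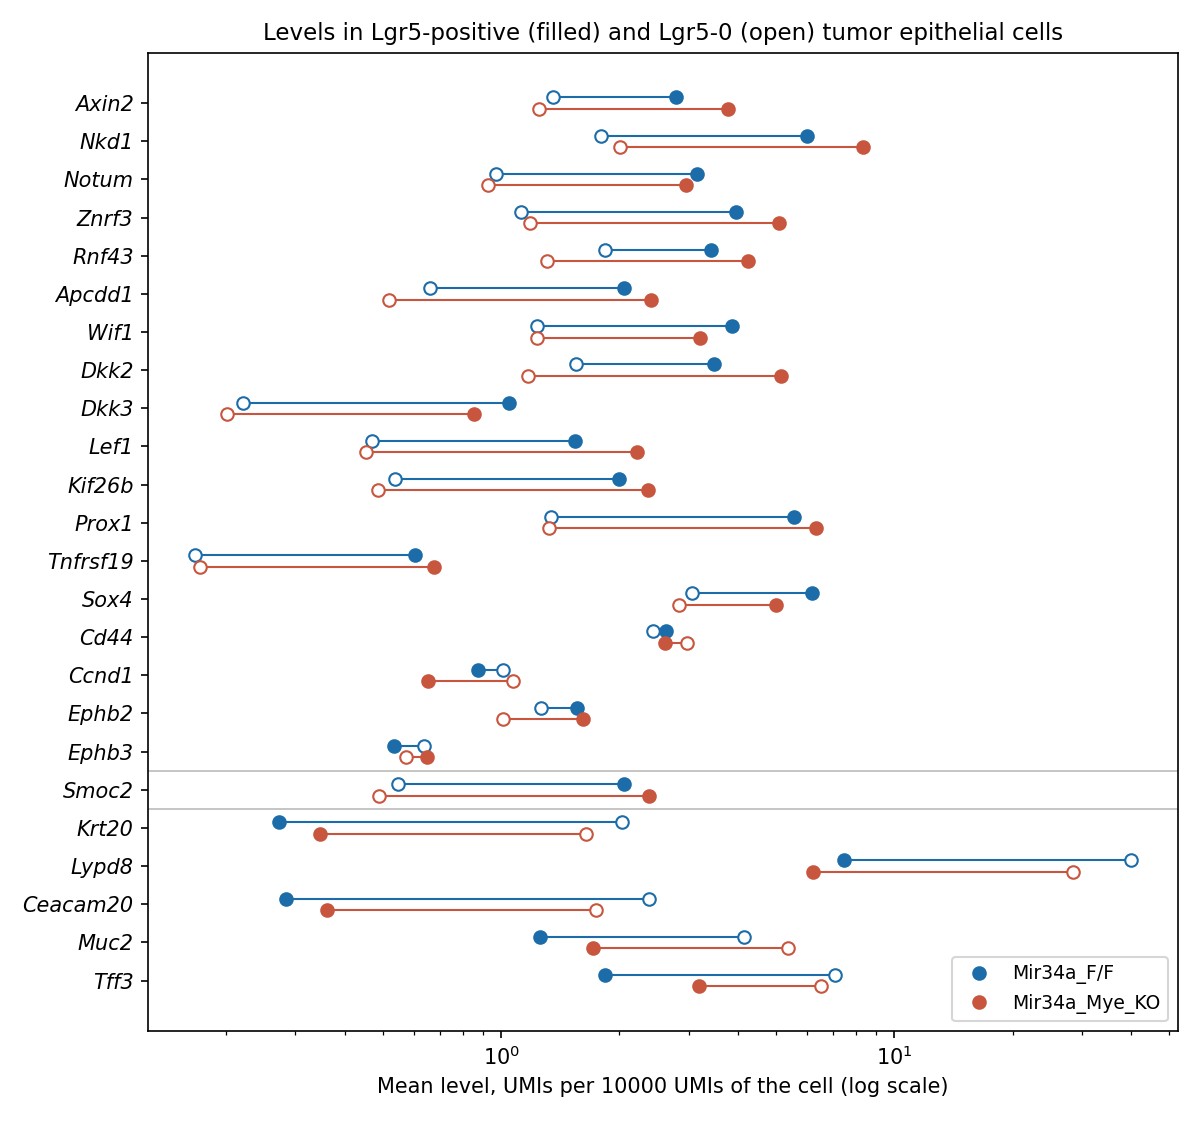
Mean level (UMIs per 10000 UMIs of the cell, log axis) in Lgr5-positive (filled) and Lgr5-0 cells (open) of the Mir34a_F/F (blue) and Mir34a_Mye_KO library (red), without error bars. Genes are the Wnt target and feedback genes above the floor, *Smoc2*, and *Krt20*, *Lypd8*, *Ceacam20*, *Muc2* and *Tff3*, chosen from the absorptive and goblet lists. Lines run to the right from open to filled points for most Wnt genes and are short for *Cd44*, *Ccnd1*, *Ephb2* and *Ephb3*. They run to the left for the chosen absorptive and goblet genes, while *Slc9a3*, *Spink4* and *Reg4* of these lists are not drawn.

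Of the 16 genes for Wnt and R-spondin ligands and their secretion, 2 were above the floor. *Wnt6*, which encodes a Wnt ligand, was higher (0.796 against 0.306 per 10000, log2 1.38, 1.18 to 1.57, and 1.10 against 0.276, 1.99, 1.76 to 2.23). *Wls*, the carrier that brings Wnts to the cell surface, had 0.42 and 0.63. Below the floor, the ligand gene *Wnt10a* had 0.348 against 0.110 and 0.370 against 0.105 per 10000. Of 17 receptor genes, 3 were above the floor, and 0 of them were higher or lower. The co-receptor *Lrp6* had 0.21 and 0.61, *Lrp5* had 0.25 and 1.05 and *Lgr4*, the widely expressed relative of *Lgr5*, had -0.34 and -0.13. Below the floor, receptor genes ran both ways. *Ror2*, a receptor of the non-canonical branch, had 0.477 against 0.172 and 0.666 against 0.140 per 10000. The Frizzled gene *Fzd1* had 0.040 against 0.150 and 0.052 against 0.110, and *Fzd5* had 0.165 against 0.379 and 0.177 against 0.3185.

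The core of the pathway differed less between the sets. Of 20 genes, 9 were above the floor, 1 was higher and 0 were lower, with medians of 0.31 and 0.46. The one that was higher was *Tle1*, a co-repressor of TCF factors (0.904 against 0.421 per 10000, log2 1.10, and 1.19 against 0.408, 1.55). *Ctnnb1*, which encodes β-catenin, had 0.20 and 0.16, and *Gsk3b* and *Csnk1a1*, kinases that mark it for degradation, had 0.43 and 0.46, and 0.42 and 0.46. *Tcf7l2*, the main TCF factor of the colon, had -0.69 and -0.16, and the co-repressor *Tle4* had -0.90 and -0.51.

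Other genes of normal crypt stem cells were mostly short of 2-fold. Of the 17 genes of this list, 8 were above the floor, 1 was higher and 0 were lower. Their medians were 0.88 and 0.56, beside 0.22 and 0.14 over all genes. *Smoc2*, a matrix protein of crypt base cells, was the one that was higher, with 2.05 against 0.548 per 10000 (log2 1.91, 1.76 to 2.05) and 2.38 against 0.488 (2.29, 2.11 to 2.47), and 2.18 and 2.91 after depth weighting. *Sox9*, a factor of the crypt base, had 0.92 and 0.91, *Lrig1*, an inhibitor of ERBB receptors, had 0.83 and 1.14, and the kinase gene *Cdk6* had 1.14 and 0.85. Against depth-weighted Lgr5-0 cells, 3 of the list were higher. *Ascl2*, a transcription factor of Lgr5-positive stem cells of the normal crypt, was below the floor, with 0.111 against 0.110 and 0.116 against 0.113 per 10000 (0.01, -0.51 to 0.52, and 0.04, -0.52 to 0.58), and with ratios of 0.47 (0.00 to 0.91) and 0.46 (-0.05 to 0.93) after depth weighting. *Olfm4*, a stem cell marker of the small intestine, had 1 UMI in the Lgr5-positive cells of each library, too few for a direction. Of the 8 above the floor, 2 had ratios below 0 in both libraries. *Prom1* had 0.941 against 1.58 and 0.920 against 1.34 per 10000, and *Slc12a2* had 2.29 against 2.53 and 2.29 against 2.33. Below the floor, genes ran both ways, with *Aqp4* at -1.22 and -0.92. On the higher side, other genes below the floor passed 2-fold in both libraries. *Msi1*, an RNA-binding protein of stem cells, had 0.180 against 0.0482 and 0.236 against 0.0638 per 10000 (1.90 and 1.89), *Mex3a*, another RNA-binding protein, had ratios of 1.22 and 1.41, and *Tert*, the telomerase subunit, had 1.28 and 2.36. Over all genes above the floor, 6.44% were higher, so a count from 8 genes does not decide on stem cell character. The cells are called by their *Lgr5* mRNA and not stem cells, since no stem cell function was measured.

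Fetal-like genes, which injured epithelium and a class of tumor cells express, were lower in part. Of 12 genes, 9 were above the floor, 0 were higher and 4 lower, with medians of -0.72 and -0.74. *Ly6a*, which encodes the surface protein Sca-1, had 2.57 against 9.28 per 10000 (log2 -1.85, -1.94 to -1.77) and 1.40 against 5.95 (-2.08, -2.24 to -1.93). The annexin genes *Anxa1*, *Anxa3* and *Anxa8* had ratios between -1.03 and -1.73 in the libraries. *Clu*, a secreted chaperone of revival stem cells, had -0.56 and -0.36, short of 2-fold, and *Krt7*, a keratin, had 0.22 in both. After depth weighting, 4 of the 8 above the floor were lower.

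Genes of absorptive colonocytes were lower in Lgr5-positive cells. Of 16 genes, 10 were above the floor, 7 were lower and 1 was higher, with medians of -2.11 and -2.10, and the summed level of the list was 11.7 against 51.8 per 10000 and 10.6 against 37.4. *Krt20*, a keratin of differentiated colonocytes, had 0.273 against 2.04 (log2 -2.90, -3.13 to -2.68) and 0.347 against 1.65 (-2.25, -2.50 to -2.001). *Lypd8*, which keeps flagellated bacteria off the surface, had 7.43 against 39.9 (-2.42, -2.47 to -2.38) and 6.23 against 28.5 (-2.19, -2.26 to -2.13). The adhesion molecule gene *Ceacam20*, the membrane mucin gene *Muc3*, *Clca4a*, the carbonic anhydrase gene *Car1* and *Emp1* were the others that were lower. In the Mir34a_Mye_KO library, depth weighting moved *Ceacam20* from -2.27 to -2.88 and *Clca4a* from -2.03 to -2.71. The exception was *Slc9a3*, the sodium-proton exchanger of the brush border, with 1.20 against 0.584 (1.04, 0.88 to 1.20) and 1.58 against 0.593 (1.42, 1.25 to 1.59). After depth weighting, 8 of the list were lower and 1 was higher.

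Goblet cell genes were lower too. Of 10 genes, 8 were above the floor and 5 were lower, with medians of -1.83 and -1.34. *Muc2*, the main secreted mucin of the colon, had 1.26 against 4.14 per 10000 (log2 -1.72, -1.89 to -1.56) and 1.71 against 5.37 (-1.65, -1.77 to -1.53). The trefoil factor gene *Tff3*, *Fcgbp*, *Clca1* and *Zg16*, all for proteins of the mucus, were lower as well, while *Spink4* and *Reg4*, secreted proteins of the same lineage, had -0.49 and -0.08, and -0.25 and -0.21, the latter at -0.67 and 0.11 (-0.04 to 0.27) after depth weighting. A UMI of *Muc2* was found in 40.0% and 50.1% of Lgr5-positive cells against 35.6% and 44.6% of Lgr5-0 cells, at unequal depth. Of 11 genes of other secretory lineages, 4 were above the floor and 0 were higher or lower.

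The Wnt list was higher and the absorptive list lower in cells with 1 and with 2 UMIs of *Lgr5* than in those with 0, at equal depth. In cells thinned to 3000 UMIs, the summed level of the Wnt list was 23.8 per 10000 at 0 UMIs of *Lgr5*, 41.7 at 1, 55.2 at 2, 70.2 at 3 and 72.4 at 4 or more in the Mir34a_F/F library. In the Mir34a_Mye_KO library, it was 23.8, 42.5, 59.2, 82.6 and 76.4. These steps held 5336, 520, 155, 54 and 54 cells, and 2872, 301, 104, 48 and 48 cells. The last 2 steps did not differ beyond their intervals in either library. Over the same steps, the absorptive list went from 52.5 to 22.5, 10.99, 8.09 and 7.84, and from 42.9 to 17.6, 10.3, 9.86 and 9.10, where the steps from 2 UMIs on have overlapping intervals in the Mir34a_Mye_KO library. Goblet genes reached 5.99 at 4 or more UMIs in the Mir34a_F/F library from 31.5 at 0, but in the Mir34a_Mye_KO library they were at 9.62 at 2 UMIs and at 16.0 at 4 or more. Cells with 1 UMI of *Lgr5* thus lay between the sets for the Wnt and the absorptive list.

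**Figure D4:**
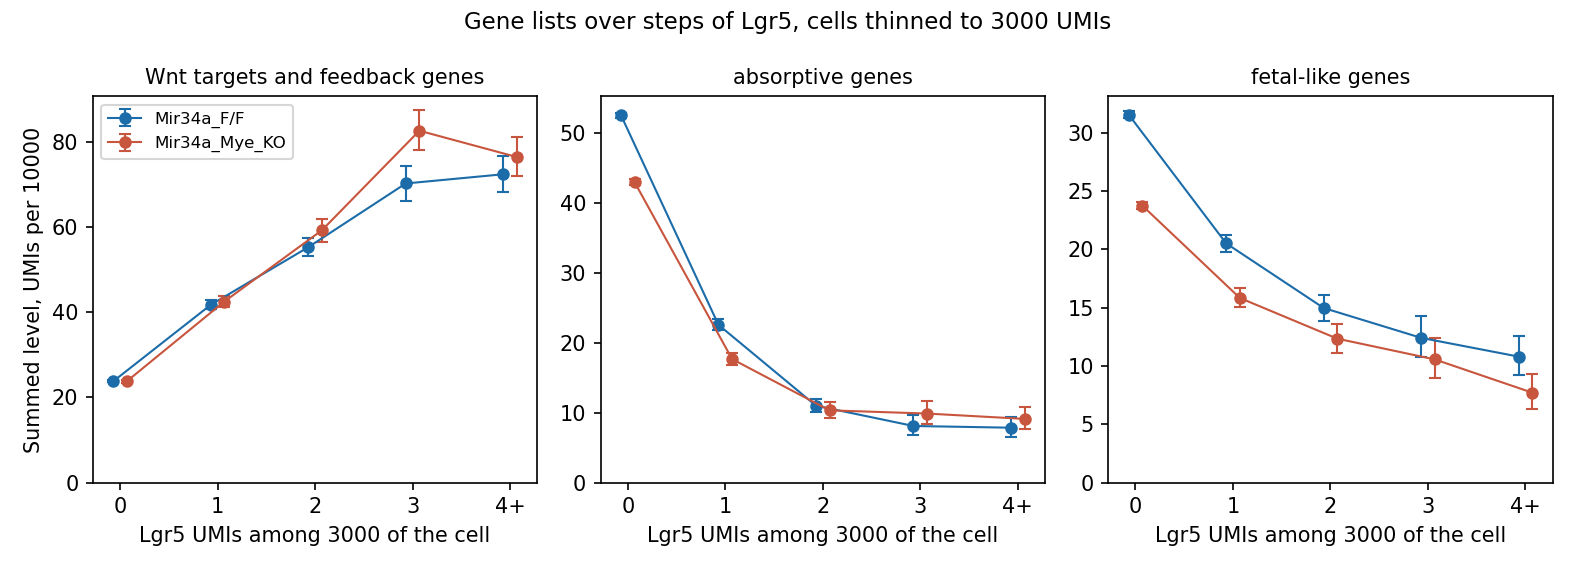
Summed level of the Wnt target and feedback genes, of absorptive genes and of fetal-like genes (UMIs per 10000, y axes) by the number of *Lgr5* UMIs among 3000 UMIs of the cell (x axes), in the Mir34a_F/F (blue) and Mir34a_Mye_KO library (red), with 95% Poisson intervals. The Wnt list goes from 23.8 to 72.4 and 76.4, and the absorptive list from 52.5 and 42.9 to 7.84 and 9.10.

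*Axin2* and *Kif26b* followed the steps of the Wnt list, with wider intervals, while *Dkk2* did so only up to 3 UMIs. *Axin2* at 3000 UMIs was 1.38 per 10000 (1.33 to 1.44) at 0 UMIs of *Lgr5* and 3.83 (2.93 to 4.91) at 4 or more in the Mir34a_F/F library, and 1.61 (1.53 to 1.70) and 4.31 (3.30 to 5.52) in the Mir34a_Mye_KO library. *Kif26b* went from 0.579 to 4.01 and from 0.600 to 3.54. *Dkk2* was highest at 3 UMIs (5.74, 4.63 to 7.03) and lower at 4 or more (3.52, 2.67 to 4.56) in the Mir34a_F/F library, and was 5.35 (4.22 to 6.68) and 3.68 (2.76 to 4.81) in the Mir34a_Mye_KO library. Without thinning, cells with 10 or more UMIs of *Lgr5* had *Dkk2* at 1.85 and 3.46 per 10000, below the 3.41 and 6.29 of cells with exactly 2.

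The 15 genes with the largest ratios in both libraries were all outside the Wnt list. *Rgs6*, a regulator of G protein signaling, had 0.967 against 0.115 per 10000 (log2 3.07, 2.80 to 3.35) and 1.24 against 0.135 (3.19, 2.87 to 3.54). *Mdga2*, a membrane protein that binds neuroligins, had 14.9 against 2.68 (2.47, 2.41 to 2.53) and 16.8 against 2.31 (2.86, 2.78 to 2.94). *Cacna1c*, a calcium channel subunit, had 2.51 and 2.59, and *Cntn3*, an adhesion molecule, had 2.29 and 2.67. *Sox6*, a transcription factor, had 2.51 against 0.455 (2.47) and 3.24 against 0.509 (2.67). *Ltbp1*, which binds latent TGF-β, *Thsd7a*, *Limch1*, the kinase gene *Pak3*, the lipase-related gene *Pnliprp2* and *Stac* completed the leading genes, with ratios between 2.29 and 3.12. *Asic2*, an acid-sensing channel, had 2.59 and 3.53, but 98.0% and 99.3% of its UMIs in Lgr5-positive cells came from the 5% of these cells that held the most. For *Rgs6*, that share was 58.4% and 66.2%, and for *Mdga2* and *Limch1*, which had the lowest, it was 26.5% to 33.7%. In the Mir34a_Mye_KO library, depth weighting moved *Rgs6* to 3.81, *Stac* to 3.97, *Cntn3* to 3.43, *Pnliprp2* to 3.095 and *Asic2* to 4.44.

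A minority of the Lgr5-positive cells held the *Rgs6* mRNA, at shares whose intervals overlap between the libraries. The share was 23.5% (155 of 660 cells, 20.3 to 26.9) and 24.0% (101 of 421 cells, 20.0 to 28.4), against 3.62% and 3.89% of Lgr5-0 cells, and at 3000 UMIs it was 19.4% and 16.5% against 2.38% and 2.93%. Lgr5-positive cells with *Rgs6* had a median of 14924 and 18815 UMIs, and those without had 13244 and 10064, so the cells with *Rgs6* were deeper, most of all in the Mir34a_Mye_KO library. The part of depth in the values that follow was not tested. Between them, *Mdga2* was 26.4 against 11.3 per 10000 and 36.3 against 10.7, and *Ptn*, the growth factor pleiotrophin, was 17.1 against 5.77 and 12.4 against 3.11. *Rgs6*, *Mdga2* and *Ptn* were on the same gene list, chosen with earlier results of these data known. That they were high in the same cells is therefore no independent evidence. *Notum* was 5.27 against 2.50 (log2 1.07, 0.93 to 1.22) and 4.75 against 2.40 (0.99, 0.82 to 1.16), and *Nkd1*, *Znrf3* and *Prox1* had ratios between 0.62 and 1.05. *Lgr5*, *Axin2* and *Kif26b* differed by less than their counting intervals in both libraries. *Dkk2* was lower in the cells with *Rgs6*, with 2.44 against 3.81 (-0.64, -0.80 to -0.49) and 4.51 against 5.35 (-0.25, -0.39 to -0.11).

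The α-defensin genes *Defa21*, *Defa22* and *Defa30*, antimicrobial peptides of Paneth cells with near-identical copies between which reads may be split, were also among the leading genes by mean, with ratios from 2.72 to 3.63. These means rest on few cells. Of 660 and 421 Lgr5-positive cells, 10 and 5 held at least 100 UMIs per 10000 of the 22 *Defa* genes, up to 7772 and 7343, and the top 5% of cells held 99.2% and 98.3% of these UMIs. The median Lgr5-positive cell had 1.03 and 1.41 per 10000, below the 1.56 and 2.58 of Lgr5-0 cells. Without the cells at 100 or more, *Defa30* had -0.88 and -1.70. The mean and the median of these genes thus ran in opposite directions.

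Of the 15 genes with the largest ratios on the lower side, *Zg16* and *Muc3* were also on the goblet and absorptive lists. *Saa1*, an acute-phase protein, had 2.03 against 17.3 per 10000 (log2 -3.10, -3.19 to -3.01) and 2.40 against 11.8 (-2.31, -2.41 to -2.20). *Clca4b*, of the family of calcium-activated chloride channel regulators, had 1.03 against 8.38 (-3.03) and 1.08 against 7.31 (-2.76), and its relative *Clca3b* had -2.53 and -2.40. *Zg16*, a lectin of mucus, had -3.37 and -2.85, and *Cdhr5*, a brush border cadherin, -2.69 and -2.36. Members of the Ly6 family stood together, with *Ly6g* at -2.56 and -2.52, *Ly6c1* at -2.41 and -2.50 and *Ly6m* at -3.35 and -2.35. The interferon-related gene *Ifit1bl1* had -2.83 and -2.52, and *Prss22*, *Cyp2d34*, *Muc3*, *Trim40*, *Dhrs9* and *Clec2h* lay between -2.28 and -2.97. In the Mir34a_Mye_KO library, depth weighting moved *Saa1* to -2.92, *Clca4b* to -3.46, *Clca3b* to -3.002 and *Ifit1bl1* to -3.17.

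The condition on *Top2a* left out cells with its UMIs, which need not be every cycling cell. *Ube2c*, another mitotic gene, had a UMI in 16.8% and 19.7% of the Lgr5-positive cells. Its level was 0.169 and 0.2365 per 10000, against 0.417 and 0.527 in Lgr5-0 cells. Whether these UMIs came from cycling cells was not tested. Only *Mki67*, a marker of proliferation, was above the floor among 14 mitosis genes, with 0.248 against 0.597 per 10000 (log2 -1.27, -1.57 to -0.98) and 0.250 against 0.581 (-1.21, -1.70 to -0.77). With depth-weighted Lgr5-0 cells, its ratios were -0.71 (-0.999 to -0.44) and -0.81 (-1.27 to -0.37), short of 2-fold. Of 17 S-phase genes, 2 were above the floor and 0 were higher or lower. The 315 and 186 cells that had at least 2 UMIs of *Lgr5* together with *Top2a*, at the same limit on mt- genes, had the Wnt list at 43.1 and 48.4 per 10000, between the Lgr5-0 and the Lgr5-positive cells, and the absorptive list at 11.4 and 11.3, near the 11.7 and 10.6 of the Lgr5-positive cells.

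In other pathways of the crypt, few genes passed 2-fold. Over all genes, 6.44% were higher and 5.81% lower, so counts from so few genes decide nothing about these pathways. Of 19 Notch genes, 4 were above the floor, and of 22 BMP genes 10, with 0 higher or lower in either. Their medians were 0.48 and 0.45, and 0.42 and 0.56, beside 0.22 and 0.14 over all genes. *Notch1*, a receptor, had 0.85 and 0.74 (1.21 and 1.18 with depth-weighted Lgr5-0 cells), *Hes1*, a target of Notch, 0.43 and 0.51, and the BMP receptor gene *Bmpr1a* 0.87 and 0.93. Of 13 genes of the EGF family and its receptors, 6 were above the floor and 1 was lower. It was *Areg*, the ligand amphiregulin, with 1.70 against 3.65 per 10000 (log2 -1.11, -1.21 to -1.01) and 1.23 against 2.69 (-1.13, -1.28 to -0.98). The receptor gene *Egfr* had -0.93 and -0.55 (-1.01 and -1.004 after depth weighting, and thus past 2-fold), and the ligand gene *Hbegf* had -0.52 and -0.59. Of 4 genes of the p53 pathway, 3 were above the floor and 0 passed 2-fold, with *Trp53* at 0.76 and 0.46 and *Cdkn1a* at -0.32 and -0.54.

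Of 8 epithelial genes, 7 were above the floor, and *Krt19*, a keratin, was lower (log2 -1.13 and -1.12). *Vil1*, a brush border protein, was found in 41.2% and 38.0% of Lgr5-positive cells, and *Cdx2*, a transcription factor of intestinal epithelium that was below the floor, in 2.42% and 1.90%. *Epcam*, an adhesion molecule of epithelium, had 12.4 against 16.0 per 10000 (-0.37) and 10.45 against 12.7 (-0.28), with a UMI in 98.5% and 97.4% of Lgr5-positive cells. Of 10 genes of epithelial-mesenchymal transition, 7 were above the floor and 0 were higher or lower in both libraries. *Vim*, an intermediate filament of mesenchymal cells, had 4.39 against 1.09 (2.01, 1.91 to 2.10) in the Mir34a_F/F but 2.61 against 1.69 (0.63, 0.51 to 0.75) in the Mir34a_Mye_KO library. With depth-weighted Lgr5-0 cells, the ratios of *Vim* were 2.02 and 1.58, and 1 gene of the list was higher. *Zeb2*, a repressor of epithelial genes, had -0.80 (-1.11 to -0.50) and -1.39 (-1.65 to -1.14), and -0.03 (-0.33 to 0.25) and -0.33 (-0.58 to -0.09) after depth weighting. Its relative *Zeb1*, below the floor, had -0.78 and -0.80, and -0.19 and 0.19 after depth weighting.

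Markers of other cell types were measured as a check for mixed droplets. Of the 5 T cell, 5 fibroblast, 4 endothelial and 5 erythroid markers, 0 were above the floor, with summed levels in Lgr5-positive cells from 0.0405 to 0.395 per 10000 and with *Kdr* at 0 UMIs in the Mir34a_F/F library. The 7 macrophage markers summed to 1.51 against 2.74 and 2.02 against 4.47, and the 5 mast cell markers to 4.58 against 6.45 and 5.25 against 12.6. The 5 neutrophil markers summed to 7.23 against 12.2 and 4.17 against 15.9. The 7 B and plasma cell markers summed to 17.5 against 32.2 and 50.3 against 125.5. Ranges over single Lgr5-positive cells ran from 0 to 22.3 for macrophages, from 0 to 707 for neutrophils, from 0 to 561 for mast cells and from 0 to 1228 for B and plasma cells. By summed level, the macrophage, mast cell, neutrophil and B and plasma cell lists were lower in Lgr5-positive cells, and so was the MHC class II list, with 2 of 4 genes above the floor counted as lower. The endothelial list ran the other way at low levels, with 0.297 against 0.259 and 0.395 against 0.3145. The marker *Dkk2* was also found in annotated endothelial cells, at 1.16 and 1.42 per 10000, beside 1.64 and 1.27 in all epithelial cells. With depth-weighted Lgr5-0 cells, 0 of the MHC class II and 0 of the B and plasma cell genes passed 2-fold, and *Igkc*, an immunoglobulin light chain, moved from -0.92 and -1.39 to -0.30 and -0.35. In the Mir34a_F/F library, the mast cell protease gene *Mcpt1* turned from -0.48 to 0.15 (0.06 to 0.24) and the neutrophil gene *Retnlg* from -0.44 to 0.27 (0.07 to 0.47). The part of these markers in other results was not tested. At least 2 UMIs of *Ptprc*, a gene of all leukocytes, were found in 41 of 660 and 32 of 421 Lgr5-positive cells and in 203 of 5191 and 220 of 3467 Lgr5-0 cells, at unequal depth, and without such cells 249 genes were higher and 233 lower. As given in the methods, doublets had been removed with Scrublet.

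Between the libraries, few genes differed 2-fold in Lgr5-positive cells. Of 3982 genes that reached a mean of 0.5 in 1 library or both, 29 (0.728%) were higher and 36 (0.904%) lower in the Mir34a_Mye_KO library, with a median log2 ratio of -0.07, and 12 and 3 of them also passed 2-fold in Lgr5-0 cells. None of the 18 Wnt target and feedback genes above the floor passed 2-fold, by the means over cells and without a test. Their median was 0.21, against -0.09 in Lgr5-0 cells, with *Dkk2* at 0.56 (0.47 to 0.65) against -0.40 (-0.51 to -0.30) and *Axin2* at 0.43 (0.32 to 0.55) against -0.12 (-0.23 to -0.02). Absorptive, goblet and stem genes above the floor did not pass 2-fold either.

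Immunoglobulin genes were among those with the largest ratios on the higher side. The light chain gene *Iglc2* had 0.981 against 0.0980 per 10000 (log2 3.32, 2.89 to 3.78), *Jchain*, the joining chain of antibodies, had 3.93 against 0.979 (2.00) and *Igkc* had 23.3 against 7.81 (1.58). In Lgr5-0 cells, their ratios were 3.26, 2.34 and 2.06. The cytokine receptor gene *Il31ra* had 2.07 against 0.482 (2.10), against 0.93 in Lgr5-0 cells. *Cdk8*, a kinase of Mediator, had 13.6 against 4.38 (1.63, 1.55 to 1.72), against 0.98 (0.94 to 1.02) in Lgr5-0 cells, and *Lars2*, a mitochondrial tRNA synthetase, had 17.8 against 5.18 (1.78), against 1.22. *Gm42418* and *Gm26917*, transcripts that overlap ribosomal RNA, had 1.54 and 1.502, against 1.24 and 0.36 in Lgr5-0 cells. *Gm15564* had 2.13, against 1.74 in Lgr5-0 cells. *Zfp791*, a zinc finger gene, had 1.52, against 0.05 (-0.14 to 0.23) in Lgr5-0 cells. The MHC class II genes *H2-Aa*, *H2-Ab1* and *H2-Eb1* had ratios between 1.05 and 1.17, and between 1.19 and 1.33 in Lgr5-0 cells.

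Among the 36 genes on the lower side, 5 were for ribosomal proteins. *Rpl10* had 4.99 against 13.1 per 10000 (log2 -1.39, -1.45 to -1.33) and *Rpl39* had 10.4 against 24.9 (-1.26, -1.31 to -1.21), against -0.42 and -0.57 in Lgr5-0 cells. Of 79 ribosomal protein genes above the floor, 5 were lower and 0 higher, with a median of -0.69 in Lgr5-positive and -0.12 in Lgr5-0 cells. All ribosomal protein genes together took a median of 12.5% of UMIs in the Lgr5-positive cells of the Mir34a_F/F and 6.47% in those of the Mir34a_Mye_KO library, against 8.02% and 7.63% in Lgr5-0 cells. The mt- genes were the other way round in Lgr5-positive cells, with medians of 4.25% and 8.5%, but not in Lgr5-0 cells, with 8.87% and 6.39%, and the part of this shift in other genes was not tested. *Krt17*, a keratin of stratified and injured epithelium, had 0.430 against 0.999 (-1.22, -1.47 to -0.97), and *Fst*, the activin inhibitor follistatin, had 0.391 against 0.894 (-1.19, -1.43 to -0.96). Both were also lower in Lgr5-0 cells, with -0.73 (-0.99 to -0.47) and -0.38 (-0.66 to -0.09). *Naa38*, *Gm11808*, *Gm11290*, *Gm15293*, *Gm48678* and *Defa36* were the other leading genes by rank, with ratios from -1.19 to -1.81, and from -0.20 to -1.59 in Lgr5-0 cells. Of these, *Gm15293* and *Defa36* were found in only 1.90% to 3.94% of Lgr5-positive cells. When cells were thinned to 3000 UMIs, at which 263 and 200 cells met the rule, 66 genes were higher and 106 lower. The numbers were 31 and 25 with Lgr5-positive cells of the Mir34a_Mye_KO library weighted to the depth of those of the Mir34a_F/F library. With 1 library of pooled tumors per genotype, the genotype and the library cannot be told apart.

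**Figure D5:**
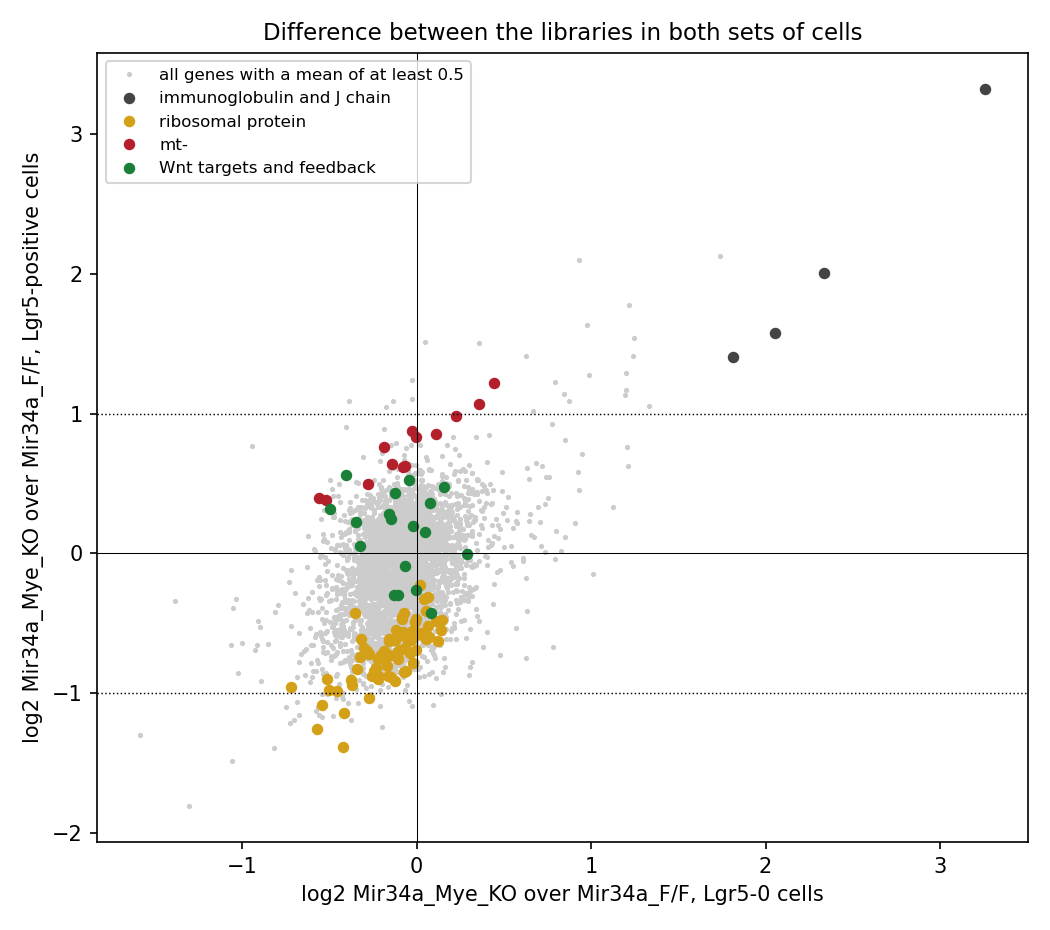
Log2 ratio of the mean level in the Mir34a_Mye_KO over the Mir34a_F/F library, in Lgr5-0 cells (x axis) and in Lgr5-positive cells (y axis), with 1 point per gene above the floor and dotted lines at 2-fold in Lgr5-positive cells. Immunoglobulin genes (black) lie at the upper right, ribosomal protein genes (yellow) mainly below 0 in Lgr5-positive cells with a median of -0.69, and Wnt genes (green) between the dotted lines.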

How the data were processed

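Tumor cells of both genotypes were profiled by droplet single-cell RNA sequencing, with Cell Ranger 7.2.0 and mm10 named in the submitters' processing notes. The deposited values are on a natural log scale, ln(1 + UMIs of the gene per 10000 in that cell), normalized by the authors in Seurat after doublet removal with Scrublet, for 32291 genes in 38883 cells with annotated cell types. Cell types and libraries were taken from the deposited annotation. The log was undone and divided by the smallest value above 0 of each cell, which gave whole UMI counts (largest deviation 1.5e-10). Means of UMIs per 10000, ratios and 95% intervals (Poisson for counts, exact binomial for shares, from the number of UMIs for ratios) were computed with pandas 2.3.3, scipy 1.17.1 and numpy 2.4.6 under Python 3.11.15, and drawn in matplotlib 3.10.9. The recovery of known ratios was checked on simulated Poisson counts. These lack the uneven spread of UMIs over cells seen here, so they do not show how well the intervals hold for these data.

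No model was fitted, since each genotype has 1 library. Genes of the lists, the 15 with the largest ratios in each direction (by the smaller of the library ratios) and the 10 in each direction between the libraries were named. The rule for the cells and the gene lists were chosen with earlier results of these data known. Alternatives were other cuts on *Lgr5*, mt- genes, *Top2a* and *Ptprc*, other floors, a pseudocount, other scaling, weighting by depth and thinning to 3000 UMIs. Columns of samples outside the series numbered 0.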

Additional observations from a re-analysis of the deposited data

Results flagged for a closer look

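*Cd44*, which encodes the hyaluronan receptor and is counted among Wnt targets, had intervals off 0 on opposite sides in the libraries. Its log2 ratio of Lgr5-positive over Lgr5-0 cells was 0.11 (0.02 to 0.20) in the Mir34a_F/F and -0.19 (-0.30 to -0.07) in the Mir34a_Mye_KO library. With Lgr5-0 cells weighted to the depth of the Lgr5-positive cells, the ratios were 0.14 (0.06 to 0.22) and 0.18 (0.08 to 0.29), so they no longer lay on opposite sides. The difference between the libraries was not tested, since the intervals cover counting error only. Both ratios are well short of 2-fold, and 263 of 3802 genes above the floor had ratios on opposite sides of 0 with both intervals off 0.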

How the results depend on the processing

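Wnt target and feedback genes that were at least 2-fold higher numbered 10 to 13 over all alternatives, against 12. The share of Lgr5-positive cells in the Mir34a_F/F and the Mir34a_Mye_KO library was 3.47% and 2.87% with at least 3 UMIs of *Lgr5*, 11.8% and 8.97% with at least 1, 4.64% and 2.39% with mt- genes under 10%, 3.11% and 2.67% at 3000 UMIs and 8.40% and 6.15% without the condition on *Top2a*. Of epithelial cells under 25% mt-, a denominator chosen after seeing the data, it was 7.11% and 6.97%. Higher and lower genes numbered 110 and 43 with at least 1 UMI of *Lgr5*. They numbered 425 and 388 of 7298 genes with a floor of 0.2, and 138 and 120 of 1866 genes with a floor of 1. Between the libraries, 66 genes were higher and 106 lower at 3000 UMIs, and 51 and 61 of 7470 genes with a floor of 0.2. Fewer were lower elsewhere, with 9 at 1 or more UMIs of *Lgr5*, 19 with mt- genes under 10% and 18 with a pseudocount of 0.1. With a floor of 1, 18 of 1993 genes were lower. The cause was not tested.

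Of 4536 recomputed gene ratios, 16 changed sign after a 2-fold value. A further 197 fell short of 2-fold from a 2-fold value, and 100 passed 2-fold from a smaller one. Smaller values that changed sign and left their interval numbered 72. The other 4151 counted as the same, among them 324 at each of the other floors, which do not enter a ratio. The 16 changes of sign were as follows. For *Defa22*, the ratio was -0.9993 in the Mir34a_Mye_KO library with at least 3 UMIs of *Lgr5*. At 3000 UMIs, ratios in the Mir34a_F/F and Mir34a_Mye_KO library were -2.74 and -0.49 for *Defa21*, -1.98 and -1.52 for *Defa22* and -2.87 and -0.57 for *Defa30*, and in the Mir34a_Mye_KO library 0.39 for *C1qa*, 0.0295 for *C1qb*, 0.28 for *H2-Eb1* and 0.25 for *Retnlg*. Without cells at 100 or more *Defa* UMIs per 10000, an alternative chosen after seeing the data, as was the one of cells with at least 3000 UMIs, *Defa21* had -1.99 in the Mir34a_Mye_KO library, *Defa22* -0.12 and -1.18, and *Defa30* -0.88 and -1.70.

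Limits are set by the design. With 1 library per genotype, there was no replicate to leave out and the spread between mice was not measured. No paired analysis was possible, since each genotype has 1 pooled library and no mouse was assigned to a cell. On thinned counts, 263 and 200 cells met the rule, so low genes then rest on few UMIs.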

Other observations

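Among cells with at least 2 UMIs of *Lgr5*, those that also held *Top2a* were compared with the Lgr5-positive cells, which lack it by the rule. They were deeper, with medians of 16495 and 13374 UMIs against 13702.5 and 11175, and the part of depth was not tested. *Lgr5* itself was lower in them, with 3.69 against 4.73 and 4.35 against 5.185 per 10000, and so were *Axin2*, *Dkk2* and *Kif26b*. *Notum*, the Wnt deacylase, had 2.07 per 10000 against 3.15 in Lgr5-positive cells of the Mir34a_F/F and 2.12 against 2.96 in those of the Mir34a_Mye_KO library. *Mdga2*, a membrane protein that binds neuroligins, had 9.33 against 14.9 and 8.87 against 16.8. *Lypd8*, of the colonocyte surface, was near equal in the Mir34a_F/F library with 7.27 against 7.43, and had 7.29 against 6.23 in the Mir34a_Mye_KO library. Genes of S phase summed to 5.29 against 2.85 and 4.42 against 2.54. *Mki67* followed *Top2a*, with 1.24 against 0.248 and 1.61 against 0.250. Since the cells were split on a mitotic gene, the values of *Mki67* and of the S-phase genes are no independent evidence.

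*Vim*, the intermediate filament of mesenchymal cells, was also higher in the Lgr5-positive cells with *Rgs6* than in those without, with 7.31 against 3.50 per 10000 (log2 1.06, 0.96 to 1.17) in the Mir34a_F/F and 4.13 against 2.13 (0.95, 0.79 to 1.12) in the Mir34a_Mye_KO library. These cells differed in depth, and its part in these values was not tested.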
